A study of Mus musculus with 9 samples.

Results

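The promoters of mouse zinc finger genes with a numbered Zfp symbol were compared in naive CD4+ T cells by ATAC-seq, an assay whose transposase cuts and tags DNA where chromatin is open. The peaks were chosen by name alone: those that the authors' table places at a transcription start site (TSS) of a gene whose symbol is Zfp followed by digits only, leaving out Zfp36. The rule took 322 peaks of 298 genes, among 14608 TSS peaks and 115727 peaks in all. The libraries came from untreated naive helper T cells of C57BL/6 mice, isolated ex vivo with a commercial kit. There were 3 genotypes with 3 libraries each, namely Stat6_KO (a Stat6 knockout), Il21e_KO and WT. The labels also write the Il21e allele as IL21KO, and leave out what it deletes and the age and sex of the mice. Nothing says that the replicates of a genotype are different animals, so p-values reflect only the spread among these libraries, which may be technical. In bulk ATAC-seq, openness in fewer cells and lower openness per cell cannot be told apart.

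Most mouse genes with such names encode C2H2 zinc finger proteins, in which small zinc-holding loops read DNA. Many also carry a KRAB domain, which recruits the corepressor TRIM28 and, through the methyltransferase SETDB1, histone H3 lysine 9 methylation, and so silences transposable elements. KRAB zinc finger genes multiplied by tandem duplication and often lie in clusters of near-identical copies. The symbol does not mean that a gene belongs to the KRAB family: Zfp91 (an E3 ubiquitin ligase) and Zfp207 (a mitotic spindle and kinetochore protein) have numbered names as well. STAT6 is the transcription factor of the interleukin-4 signal, and IL-21 is a cytokine of activated helper T cells.

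Reads in peaks ranged from 1049460 to 1802405 per library, so that 1 read was worth 0.555 to 0.953 CPM (the authors' depth-scaled read count). A count of 0 allowed up to 3 reads, or 1.66 to 2.86 CPM, and such floors cover counting error only. The library Il21e_KO 1 stood apart, with no read in 27200 peaks and 42.7% of its reads at TSS peaks, against 31.6% to 36.4% in the other 8. The Stat6 exon 12 peak held 5, 3 and 3 reads in Stat6_KO libraries, 5, 15 and 13 in Il21e_KO libraries, and 11, 9 and 19 in WT libraries. All 12 naive CD4+ T cell marker genes had a TSS peak, as did all 8 B cell marker genes. Having a TSS peak thus did not set the naive markers apart. The naive markers had 18 TSS peaks, of which 15 passed the read filter. B cell markers had 11 TSS peaks, of which 2 passed the read filter, and their summed level was 42.2 to 43.2 CPM in Stat6_KO, 21.9 to 37.2 CPM in Il21e_KO and 24.9 to 54.8 CPM in WT libraries.

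Promoter sequences came from RefSeq on the mouse build GRCm38.p6, 250 bases before and 50 bases after the start, with all positions of printed sequences on that build. They were matched to genes with peaks by transcript or gene symbol. Whether a window lies under the measured peak was not checked. Of the 298 genes 250 had an entry, and the 206 with exactly 1 entry were compared with 7801 genes of other TSS peaks. The sequence around the ZNF143 site (ACTACAATT on either strand) is shown first, because its share differed most in ratio from that of other promoters among the motifs searched. ZNF143, whose mouse gene Zfp143 is itself a member, is a zinc finger activator that binds many promoters. The site was held by 8 members, at chr8:111643402-111643442 (Zfp1), chr7:24254711-24254755 (Zfp108), chr7:12881147-12881177 (Zfp128), chr7:24081859-24081896 (Zfp180), chr13:67500524-67500568 (Zfp58), chr11:58307003-58307047 (Zfp692), chr7:24270331-24270375 (Zfp93) and chr4:147848424-147848468 (Zfp933). Capitals mark the site, each line runs 5′ to 3′ along the gene, and the site starts 13 to 69 bases before the start.
Zfp1: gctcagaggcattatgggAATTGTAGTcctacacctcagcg
Zfp108: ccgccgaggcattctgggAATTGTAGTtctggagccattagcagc
Zfp128: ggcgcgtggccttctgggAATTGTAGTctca
Zfp180: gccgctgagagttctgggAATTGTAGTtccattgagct
Zfp58: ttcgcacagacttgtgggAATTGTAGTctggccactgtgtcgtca
Zfp692: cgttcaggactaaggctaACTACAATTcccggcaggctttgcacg
Zfp93: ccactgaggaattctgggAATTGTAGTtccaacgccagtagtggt
Zfp933: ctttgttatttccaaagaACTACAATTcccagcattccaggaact

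The window of Zfp882 is printed next, because its peak was higher in both knockouts than in WT without overlap. It covers the 250 bases before the start at chr8:71908356-71908605, and capitals mark a site for YY1, a zinc finger factor that binds many promoters.
Zfp882: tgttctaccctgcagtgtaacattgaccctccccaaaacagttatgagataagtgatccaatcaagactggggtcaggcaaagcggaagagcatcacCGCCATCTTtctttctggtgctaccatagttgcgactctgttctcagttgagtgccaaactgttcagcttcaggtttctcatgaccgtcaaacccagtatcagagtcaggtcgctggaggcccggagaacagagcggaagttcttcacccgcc
The pair Zfp971 and Zfp970 is printed because their promoters had the fewest edits of the 21115 pairs compared end to end, while their peaks differed in level. They lie at chr2:178023034-178023283 and chr2:177464492-177464741, and capitals mark CCAAT boxes, which bind NF-Y.
Zfp971: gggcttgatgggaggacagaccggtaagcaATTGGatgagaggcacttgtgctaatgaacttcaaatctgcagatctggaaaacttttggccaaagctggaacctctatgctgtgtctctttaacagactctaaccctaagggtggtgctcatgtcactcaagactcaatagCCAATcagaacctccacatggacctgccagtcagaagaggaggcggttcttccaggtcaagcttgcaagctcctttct
Zfp970: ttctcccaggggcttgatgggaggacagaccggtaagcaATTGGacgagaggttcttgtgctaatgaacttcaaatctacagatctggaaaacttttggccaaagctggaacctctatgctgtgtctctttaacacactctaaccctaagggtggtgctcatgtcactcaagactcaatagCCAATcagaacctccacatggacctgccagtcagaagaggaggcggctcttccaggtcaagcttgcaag
The pair Zfp976 and Zfp936, at chr7:42642605-42642854 and chr7:43177340-43177589, had the largest CPM ratio of the 6 pairs within 60 edits of each other. Capitals again mark CCAAT boxes.
Zfp976: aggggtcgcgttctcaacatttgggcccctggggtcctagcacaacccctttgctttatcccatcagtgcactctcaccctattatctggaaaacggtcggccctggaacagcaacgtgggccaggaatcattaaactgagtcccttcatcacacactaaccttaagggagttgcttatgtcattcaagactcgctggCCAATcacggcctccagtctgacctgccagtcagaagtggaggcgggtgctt
Zfp936: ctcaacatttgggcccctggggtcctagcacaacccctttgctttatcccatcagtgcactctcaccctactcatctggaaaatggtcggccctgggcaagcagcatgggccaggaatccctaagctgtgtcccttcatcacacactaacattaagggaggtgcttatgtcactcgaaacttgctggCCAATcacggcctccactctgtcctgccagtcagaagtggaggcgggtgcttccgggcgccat

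The zinc finger promoters were poorer in CpG than other promoters. Their median GC content was 54.3%, against 61% for the genes of other TSS peaks, and they held a median of 13.5 CpG, against 21. A GC box (GGGCGG, bound by SP and KLF factors) was found in 44.7% of the members, against 65.8% of the others. A CCAAT box was found in 50% of the members and in 38.3% of the others, so the order of these elements was turned round in the zinc finger promoters. The ZNF143 site was found in 3.88% of the members (8 of 206), against 0.641% of the others (50 of 7801) and 0.42% of all 22862 promoters of the table. In all 8 members, and in 45 of the 50 others, the site was followed by CCC, an extension chosen after the sequences were seen.

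The ETS site CCGGAAG stood in 21.8% of members, against 17.3% of others. The NRF1 site GCGCATGCG stood in 5.83%, against 3.54%, and the YY1 site AAGATGGCG in 4.37%, against 3.05%. The cAMP response element TGACGTCA was found in 2.91% of members, against 3.31% of others, the E-box CACGTG in 9.71%, against 10.3%, and TATAAA in 5.83%, against 7.14%. The STAT6 site with a spacer of 4 bases stood in 13 members (6.31%), among them Zfp790, Zfp91, Zfp93 and Zfp933. It stood in 5.13% of other promoters and in 7.09% of all 22862 promoters, so the member share lay between these. Each motif was searched on both strands and counted whether or not it overlapped another, and a match is a run of letters and not a bound site. A gene start on the other strand lay within 1000 bp for 11.2% of members, against 16.9% of the others.

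**Figure D1:**
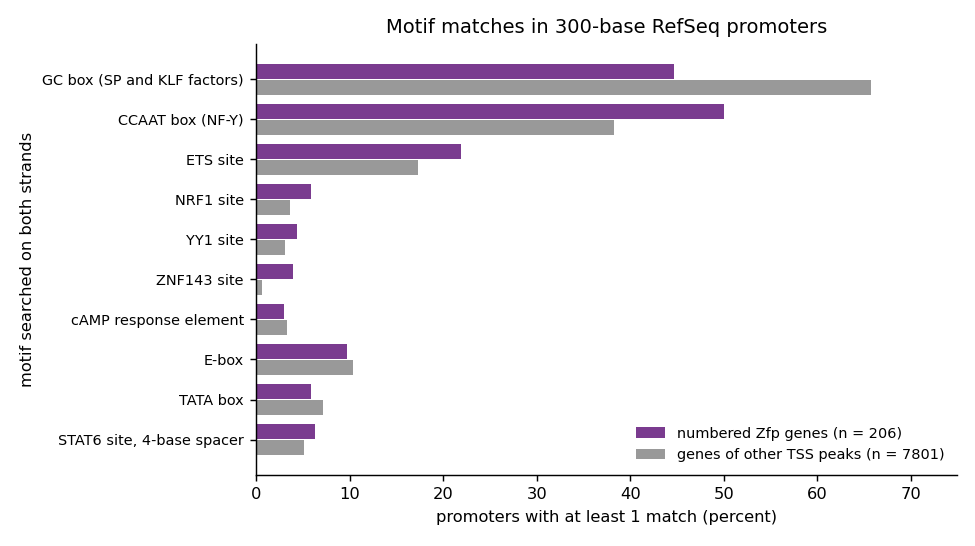
Share of promoters with at least 1 match (percent, horizontal axis) for each motif, in 206 numbered Zfp genes (purple) and 7801 genes of other TSS peaks (grey). GC boxes were in 44.7% of the zinc finger promoters, against 65.8% of the others, and CCAAT boxes in 50%, against 38.3%.

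Openness was compared between zinc finger promoters with and without each motif. The 8 with a ZNF143 site had a median of 24.3 CPM per kb of peak, against 23.7 for the 186 tested genes without it. With a GC box the median was 23.7 CPM per kb (88 genes), and without it also 23.7 CPM per kb (106 genes). The widest gaps were at the cAMP response element, with a median of 26.3 CPM per kb in the 6 genes that held it, against 23.7 in 188 without it, and at the YY1 site, with 22.4 CPM per kb in 9 genes, against 23.8 in 185. For the other 6 motifs the medians were 23.5 to 23.9 CPM per kb with the motif and 23.7 to 23.8 without it. None of these gaps was tested. Across the 194 tested members with a sequence, Spearman's rho between CpG count and CPM per kb was 0.0757, against 0.0940 across 6946 other genes; these are descriptions across genes that share libraries, and genes are not independent replicates. Among the 8 ZNF143 promoters, the level over the 9 libraries was 26.7 CPM per kb at Zfp1, 26.0 at Zfp692, 25.8 at Zfp58, 24.4 at Zfp128, 24.1 at Zfp933, 22.2 at Zfp180, 19.2 at Zfp93 and 13.5 at Zfp108. The lowest 3 of these belong to a single chromosome 7 cluster.

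The zinc finger promoters were about as open as other promoters. A peak was tested if it passed the read filter (edgeR's filterByExpr, minimum count 10), which kept 287 member peaks of 280 genes and 11618 other TSS peaks, or 89.1% of the member peaks and 81.3% of the other TSS peaks. The tested member peaks had a median of 23.5 CPM per kb, with the 5th and 95th percentiles at 14.9 and 31.1, against 23.0, 13.5 and 30.8 for other TSS peaks. The 52 tested TSS peaks of Zbtb, Zscan and Zkscan genes, other zinc finger families, had a median of 23.8 CPM per kb. Member peaks were shorter, with a median of 1085 bp against 1167 bp. The residual spread of the fit (median SD on the log2 scale) was 0.255 for members, against 0.270 for other TSS peaks.

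By library, the median of the member peaks was 21.4, 21.9 and 22.3 CPM per kb in Stat6_KO, 30.8, 22.1 and 22.2 in Il21e_KO, and 24.6, 23.7 and 21.4 in WT. The Il21e_KO 1 library was the high one, and the ranges of Il21e_KO and WT overlapped. Divided by the median of other TSS peaks in the same library, the value lay between 1.00 and 1.05. The ratio averaged 1.02 ± 0.0165 in Stat6_KO, 1.03 ± 0.0132 in Il21e_KO and 1.01 ± 0.00242 in WT libraries (SD, n = 3 each). Likewise, members held 2.24% ± 0.0198 of all reads at TSS peaks in Stat6_KO, 2.27% ± 0.0304 in Il21e_KO and 2.23% ± 0.0144 in WT libraries (SD, n = 3 each). The high values of Il21e_KO 1 were thus shared by the other TSS peaks, and its member share of TSS reads was 2.30%.

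**Figure D2:**
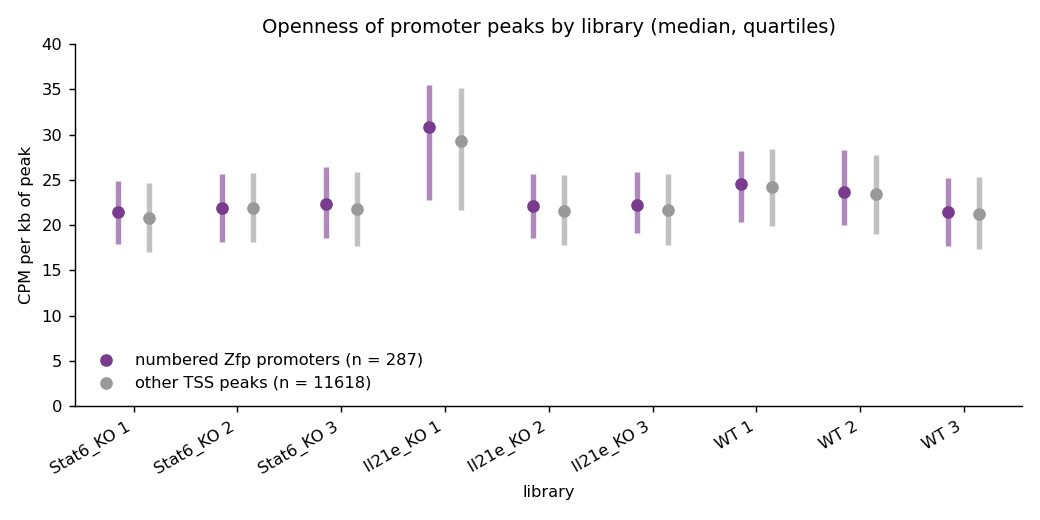
Median (point) and quartiles (bar) of CPM per kb of peak for 287 tested numbered Zfp promoter peaks (purple) and 11618 other TSS peaks (grey) in each library. Members and other promoters moved together, at 30.8 and 29.3 CPM per kb in Il21e_KO 1 and between 20.8 and 24.6 in the other 8 libraries.

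Among themselves the tested members ranged from 9.58 to 37.99 CPM per kb. The most open were Zfp934 (37.99 CPM per kb), Zfp568 (34.5), Zfp236 (34.4), Zfp971 (34.0) and Zfp994 (33.4), with percentiles among tested TSS peaks of 98.7 to 99.9. Zfp934 had 32.4, 27.1 and 26.9 CPM in Stat6_KO, 41.9, 22.1 and 24.97 CPM in Il21e_KO, and 30.6, 30.4 and 29.0 CPM in WT libraries. Its groups overlapped. The least open tested peaks were those of Zfp820 (9.58 CPM per kb), Zfp612 (11.1), Zfp521 (11.95), Zfp345 (12.1) and Zfp939 (12.1). Zfp521, a factor of blood progenitors, had 6.25, 4.12 and 6.73 CPM in Stat6_KO, 1.91, 3.15 and 4.44 CPM in Il21e_KO, and 4.28, 6.23 and 3.22 CPM in WT libraries.

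The 35 member peaks that did not pass the filter were short, with a median of 309 bp, and had 0.655 to 4.89 CPM. Of these, 15 belonged to genes with another tested TSS peak, such as Zfp760 and Zfp566, and 18 genes had no tested TSS peak, among them Zfp936, Zfp111 and Zfp618. Just inside the filter lay Zfp521 with a mean of 4.48 CPM, and just outside it Zfp219 with 4.89 CPM. No tested member had 3 reads or fewer in every library of a group. Another 23 numbered Zfp genes had listed peaks but none at a TSS, among them Zfp148 and Zfp423, and their promoters were not analysed here.

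Members with well-known roles lay between 11.95 (Zfp521) and 34.5 CPM per kb (Zfp568). Zfp281, a regulator of pluripotency genes, had 30.9 CPM per kb, and Zfp335, which T cells need to mature into the naive pool, had 26.2 CPM per kb. Zfp335 had 35.8, 38.3 and 42.2 CPM in Stat6_KO, 56.2, 45.4 and 45.5 CPM in Il21e_KO, and 54.5, 50.6 and 34.8 CPM in WT libraries. Its WT 3 value was the lowest of all 9, so the groups overlapped. Zfp207 had 23.9 CPM per kb, Zfp318 (needed for IgD expression in B cells) 23.8, Zfp91 21.0, Zfp809 (a KRAB protein that silences murine leukaemia viruses) 19.1, Zfp384 18.9 and Zfp143 18.2 CPM per kb. Zfp57, the KRAB protein that keeps the methylation of imprinted genes in embryos, had 15.1 CPM per kb, at the 7.73 percentile of tested TSS peaks. Its peak had 16.5, 8.24 and 11.6 CPM in Stat6_KO, 11.4, 20.2 and 12.2 CPM in Il21e_KO, and 11.6, 15.6 and 10.3 CPM in WT libraries. Zfp568, a KRAB repressor of a placental Igf2 transcript, had 36.9, 39.4 and 40.4 CPM in Stat6_KO, 41.9, 29.6 and 41.1 CPM in Il21e_KO, and 34.9, 33.5 and 31.6 CPM in WT libraries. The Stat6_KO values of Zfp568 all lay above the WT values, by 0.22 ± 0.17 on the log2 scale (SE), with an adjusted p of 1.00 in limma-trend.

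Of the 298 genes, 156 lay in clusters, here runs of at least 4 member genes with neighbours at most 500 kb apart. There were 19 such clusters with 163 peaks, 9 of them on chromosome 7. That chromosome held 84 member peaks, 7.43% of its TSS peaks, followed by chromosome 17 with 39 (5.27%) and chromosome 13 with 28 (5.09%), against 2.20% over all chromosomes. Clustered peaks were about as open as the others, with medians of 23.4 and 23.6 CPM per kb over 151 and 136 tested peaks. The clusters differed among themselves. The cluster from Zfp712 to Zfp273 on chromosome 13 (18 genes in 754 kb) had all its peaks tested and a median of 25.9 CPM per kb. The cluster from Zfp180 to Zfp526 on chromosome 7 (14 genes in 1140 kb) had the lowest median over all peaks, 16.0 CPM per kb. Within it, Zfp94 had 29.4 CPM per kb and Zfp111 had 6.02. Over its 11 tested peaks the median was 17.9 CPM per kb. Counting tested peaks only, the lowest median was that of the cluster from Zfp930 to Zfp866, 16.6 CPM per kb.

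**Figure D3:**
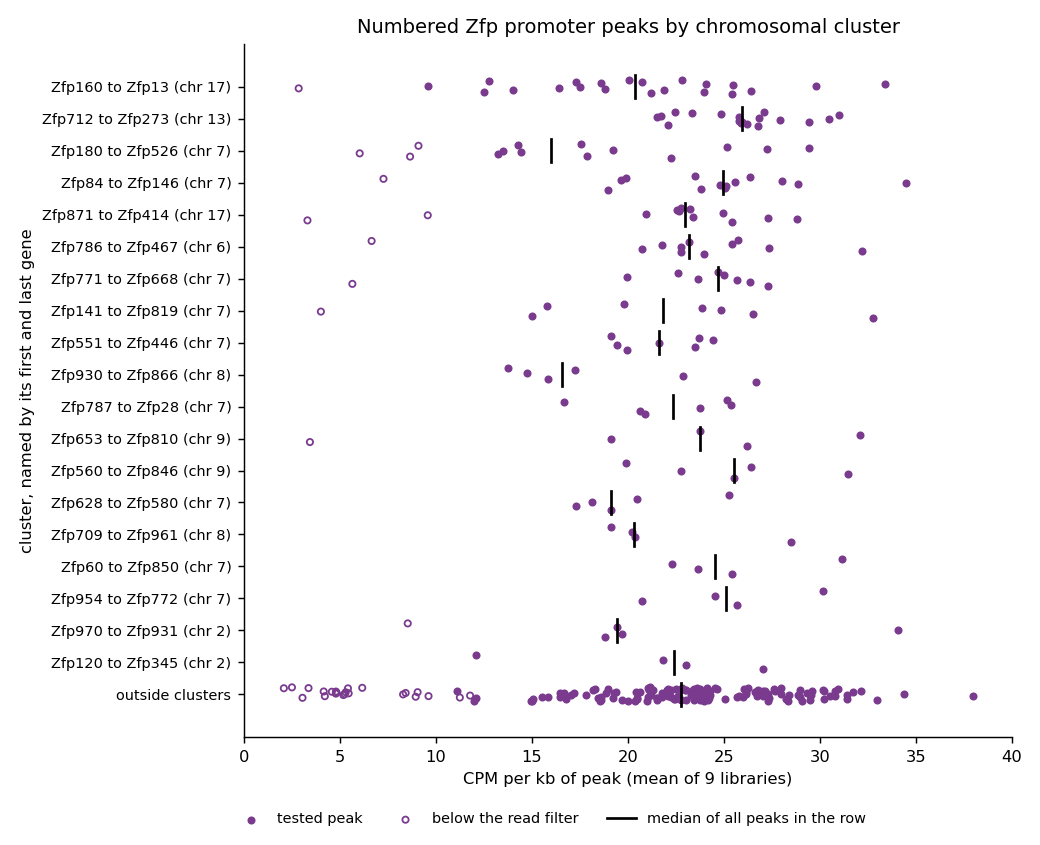
CPM per kb of peak (mean of 9 libraries, horizontal axis) for each numbered Zfp promoter peak by cluster, with the largest cluster at the top and unclustered genes at the bottom; filled points passed the read filter, open points did not, and the line is the median. The cluster from Zfp712 to Zfp273 lies tightly around 25.9 CPM per kb, and that from Zfp180 to Zfp526 around 16.0.

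The largest cluster, from Zfp160 to Zfp13 on chromosome 17, held 21 genes and a median of 20.4 CPM per kb. Its summed level was 501, 488 and 498 CPM in Stat6_KO, 613, 494 and 504 CPM in Il21e_KO, and 518, 543 and 494 CPM in WT libraries. The sum for the Zfp712 to Zfp273 cluster was 462, 473 and 478 CPM in Stat6_KO, 643, 510 and 469 CPM in Il21e_KO, and 502, 499.8 and 483 CPM in WT libraries. In this cluster all 3 Stat6_KO sums lay below the WT sums, while Il21e_KO overlapped WT. In the cluster from Zfp141 to Zfp819 on chromosome 7, none of the 7 tested peaks had a positive log2 fold change in Stat6_KO against WT, and the median was -0.18. Its sum was 137, 138 and 120.5 CPM in Stat6_KO, 221, 140 and 145 CPM in Il21e_KO, and 157, 152 and 148 CPM in WT libraries, so that the Stat6_KO values lay below the WT ones. Across all 19 clusters, the median log2 fold change of Stat6_KO against WT ran from -0.29 (Zfp120 to Zfp345) to 0.10 (Zfp560 to Zfp846). These medians were not tested. The Stat6_KO sums lay below the WT sums without overlap in 3 of the 19 clusters, the third being Zfp120 to Zfp345 with 67.1, 58.9 and 55.0 CPM in Stat6_KO, 82.9, 69.9 and 72.7 CPM in Il21e_KO, and 75.9, 73.96 and 72.9 CPM in WT libraries. They lay above the WT sums in 0 clusters. Other TSS peaks also leaned lower in Stat6_KO, with 7807 of 11618 log2 fold changes negative. Taken singly, 10.7% of other TSS peaks and 6.89% of all tested peaks lay below WT without overlap. Runs of other TSS peaks were not summed, so the share for like sums is not known and the 3 clusters are a description.

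Over all peaks, the medians of the other clusters lay between 16.0 and 25.9 CPM per kb, those of the clusters from Zfp180 to Zfp526 and from Zfp712 to Zfp273. The cluster from Zfp84 to Zfp146 on chromosome 7, with 13 genes, had a median of 24.9 CPM per kb over all its peaks; Zfp568 was its most open promoter at 34.5 CPM per kb, and its least open peak was a second, untested one of Zfp566 at 7.26. The cluster from Zfp930 to Zfp866 on chromosome 8, with 6 genes, had a median of 16.6 CPM per kb, from 13.8 at Zfp866 to 26.7 at Zfp930. Its sum was 90.4, 102 and 114 CPM in Stat6_KO, 182, 99.6 and 105 CPM in Il21e_KO, and 116, 114 and 107 CPM in WT libraries. The Il21e_KO 1 value stood far above the other 8, and Stat6_KO overlapped WT. In Stat6_KO against WT, 1 clustered member was higher and 4 were lower of 151 at an unadjusted p under 0.05 (limma-trend), and outside clusters 0 were higher and 4 lower of 136, beside 1.68% higher and 1.62% lower of all tested peaks, and 0.585% higher and 2.52% lower of other TSS peaks. The median log2 fold change was -0.05 for clustered and -0.08 for unclustered members in Stat6_KO against WT, 0.06 and 0.05 in Il21e_KO against WT, and -0.11 and -0.16 in Stat6_KO against Il21e_KO.

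Promoters with few edits between them did not always have like levels. The 300-base promoters of Zfp971 and Zfp970, of which the upstream 250 bases are printed above, differ by 25 edits (91.7% identity) end to end. The printed windows of this pair, and of Zfp976 and Zfp936, start at different points of a shared sequence. That offset counts as edits, so the edits and identities understate how alike the shared sequence is. The peaks of Zfp971 and Zfp970 had means of 34.0 and 12.2 CPM, or 34.0 and 18.8 CPM per kb, a ratio of 2.79 in CPM. In every library Zfp971 had more reads, with 51, 60 and 53 against 18, 18 and 20 reads in Stat6_KO, 36, 63 and 54 against 10, 19 and 26 in Il21e_KO, and 54, 52 and 49 against 19, 19 and 22 in WT. Zfp976 and Zfp936 differ by 53 edits (82.3% identity) and had 15 and 4.00 CPM per kb, with 8 to 19 and 1 to 4 reads per library. By contrast, Zfp442 and Zfp937 (30 edits), Zfp456 and Zfp429 (39), and Zfp747 and Zfp764 (42) had CPM ratios of 1.04, 1.06 and 1.09, and Zfp942 and Zfp944 (51) 1.47. How the authors' alignment placed reads that fit both copies is not given in the sources used here, so the levels of such copies are uncertain.

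In Stat6_KO cells against WT cells, no zinc finger promoter passed the test. With limma-trend, 0 of 287 had an adjusted p under 0.05 (lowest 1.00), beside 0.0104% of all 48287 tested peaks, and edgeR and DESeq2 also called 0. At an unadjusted p under 0.05, 1 member was higher (1.68% of all tested peaks were) and 8 were lower (1.62% of all). Counting members whose groups did not overlap, 6 were higher (6.31% of all) and 26 were lower (6.89% of all). Other TSS peaks leaned the same way, with 68 higher and 293 lower at an unadjusted p under 0.05, and 382 higher and 1244 lower without overlap, of 11618. The median log2 fold change of members was -0.07, against -0.08 for other TSS peaks and 0.00 for all tested peaks; with reads scaled to TSS reads the member median was 0.02, so its sign depended on the scaling.

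Of the 9 nominal shifts, 8 were lower values in Stat6_KO. Zfp87 had 13.1, 15.3 and 19.0 CPM in Stat6_KO libraries, 32.4, 25.8 and 21.6 CPM in Il21e_KO libraries, and 26.9, 28.0 and 21.3 CPM in WT libraries. All 3 Stat6_KO values lay below both other groups, with a log2 fold change of -0.66 ± 0.21 against WT (SE), with an adjusted p of 1.00 in limma-trend. Zfp677 had 17.0, 17.1 and 20.2 CPM in Stat6_KO, 31.4, 20.2 and 24.4 CPM in Il21e_KO, and 27.5, 25.7 and 28.4 CPM in WT libraries. Its Stat6_KO values lay below all WT values, with a log2 fold change of -0.56 ± 0.19 and an adjusted p of 1.00 in limma-trend. Zfp1, one of the ZNF143-site promoters, had 38.6, 41.8 and 41.6 CPM in Stat6_KO, 73.4, 39.7 and 55.5 CPM in Il21e_KO, and 66.1, 62.3 and 51.6 CPM in WT libraries. Its groups did not overlap between Stat6_KO and WT. Zfp62 had 48.3, 49.5 and 49.5 CPM in Stat6_KO, 61.0, 54.8 and 57.7 CPM in Il21e_KO, and 60.6, 63.8 and 61.3 CPM in WT libraries, again without overlap between Stat6_KO and WT. The remaining low promoter of the 5, Zfp84, had a log2 fold change of -0.54. On the high side, Zfp882 was followed by 1 of the 2 tested peaks of Zfp777 (0.51, against 0.00 for the other), Zfp790 (0.46), Zfp382 (0.29, or 0.12 to 0.38 without single libraries) and Zfp839 (0.25), all with an adjusted p of 1.00 in limma-trend.

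The count of nominal shifts turned on single libraries. Without Il21e_KO 1, which enters this comparison only through the shared spread, 29 members had an unadjusted p under 0.05 against 9 with it, 4 of them higher (1.39% of members, 4.30% of all tested peaks) and 25 lower (8.71% of members, 4.92% of all, 9.38% of other TSS peaks). Of all peaks 61 were then called, none of them a member, and the lowest adjusted p of a member was 0.0630, at Zfp1 (limma-trend). The count was 22 without WT 3, 5 without Stat6_KO 1, 5 without WT 1 and 3 without WT 2.

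**Figure D4:**
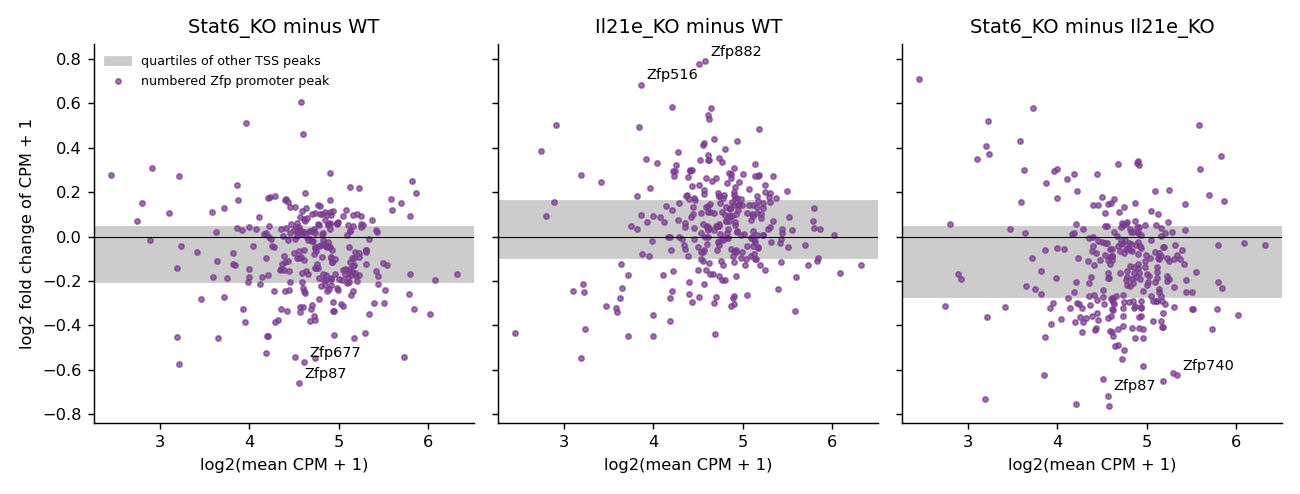
Log2 fold change of CPM + 1 (vertical axis) against log2 of the mean CPM + 1 for the 287 tested numbered Zfp promoter peaks (points) in the 3 comparisons; the grey band spans the quartiles of other TSS peaks, and the 2 members with the smallest p are named. Members centred on -0.07, 0.05 and -0.14, near the medians of other TSS peaks of -0.08, 0.03 and -0.12.

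In Il21e_KO cells against WT cells, no zinc finger promoter passed the test either. With limma-trend 0 of 287 were called (lowest adjusted p 1.00), beside 0% of all tested peaks, and edgeR and DESeq2 also called 0. At an unadjusted p under 0.05, 8 members were higher (1.1% of all tested peaks were) and 2 were lower (2.41% of all). Without overlap between the groups, 9 were higher (2.84% of all) and 8 were lower (4.44% of all). The median log2 fold change was 0.05 for members, 0.03 for other TSS peaks and -0.03 for all tested peaks. It was -0.05 without Il21e_KO 1 and -0.01 without WT 3, so its sign rested on these libraries, and with reads scaled to TSS reads it was 0.003. At an unadjusted p under 0.05 the count of 10 members became 20 without Il21e_KO 1 (5 higher, or 1.74% of members against 3.16% of all peaks, and 15 lower, or 5.23% against 3.74%). It was 23 without Il21e_KO 3, 6 without WT 1 and 5 without WT 3.

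Zfp882, the member with the smallest p in this comparison, had 27.8, 21.2 and 24.5 CPM in Stat6_KO, 35.3, 23.9 and 25.5 CPM in Il21e_KO, and 17.1, 12.5 and 18.1 CPM in WT libraries (mm9, chr8:74432072-74433195). All 6 knockout values lay above all WT values. The means were 24.5 ± 3.32, 28.2 ± 6.13 and 15.9 ± 3.00 CPM in Stat6_KO, Il21e_KO and WT libraries (SD, n = 3 each). The log2 fold change was 0.79 ± 0.21 in Il21e_KO against WT (SE, adjusted p 1.00 in limma-trend) and 0.60 ± 0.21 in Stat6_KO against WT (adjusted p 1.00 in limma-trend). It lay between 0.62 and 0.89 for Il21e_KO, and between 0.45 and 0.70 for Stat6_KO, whichever of the 9 libraries was left out. The 4 promoters of its chromosome 8 cluster, from Zfp709 to Zfp961, had a median log2 fold change of 0.19 in Il21e_KO and 0.00 in Stat6_KO against WT.

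Zfp386 had 15.3, 21.8 and 17.7 CPM in Stat6_KO, 44.8, 19.5 and 27.2 CPM in Il21e_KO, and 22.03, 14.8 and 13.5 CPM in WT libraries. Its Il21e_KO values overlapped WT, and the log2 fold change of 0.77 ± 0.27 (SE, adjusted p 1.00 in limma-trend) lay between 0.47 and 1.04 when single libraries were left out. Zfp459 had 22.7, 19.4 and 25.7 CPM in Stat6_KO, 29.5, 28.4 and 27.7 CPM in Il21e_KO, and 15.9, 19.5 and 23.9 CPM in WT libraries. Here the 3 Il21e_KO values lay close together and above all WT values, with a log2 fold change of 0.53 ± 0.19 (SE, adjusted p 1.00 in limma-trend). A TSS peak of Zfp516, a factor of brown fat genes, was among the 5 highest (log2 fold change 0.68) and another among the 5 lowest (-0.55). Neither passed the test, and the second ran from -0.83 to -0.16 when single libraries were left out. Both are low, at 20.01, 15.8 and 16.6 CPM in Il21e_KO against 13.5, 9.34 and 9.03 CPM in WT for the first, and 9.53, 3.15 and 7.21 against 9.79, 9.34 and 9.03 CPM for the second, where the groups overlapped. The other low members were Zfp507, Zfp235 (-0.45), Zfp275 (-0.31) and Zfp428 (-0.27).

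**Figure D5:**
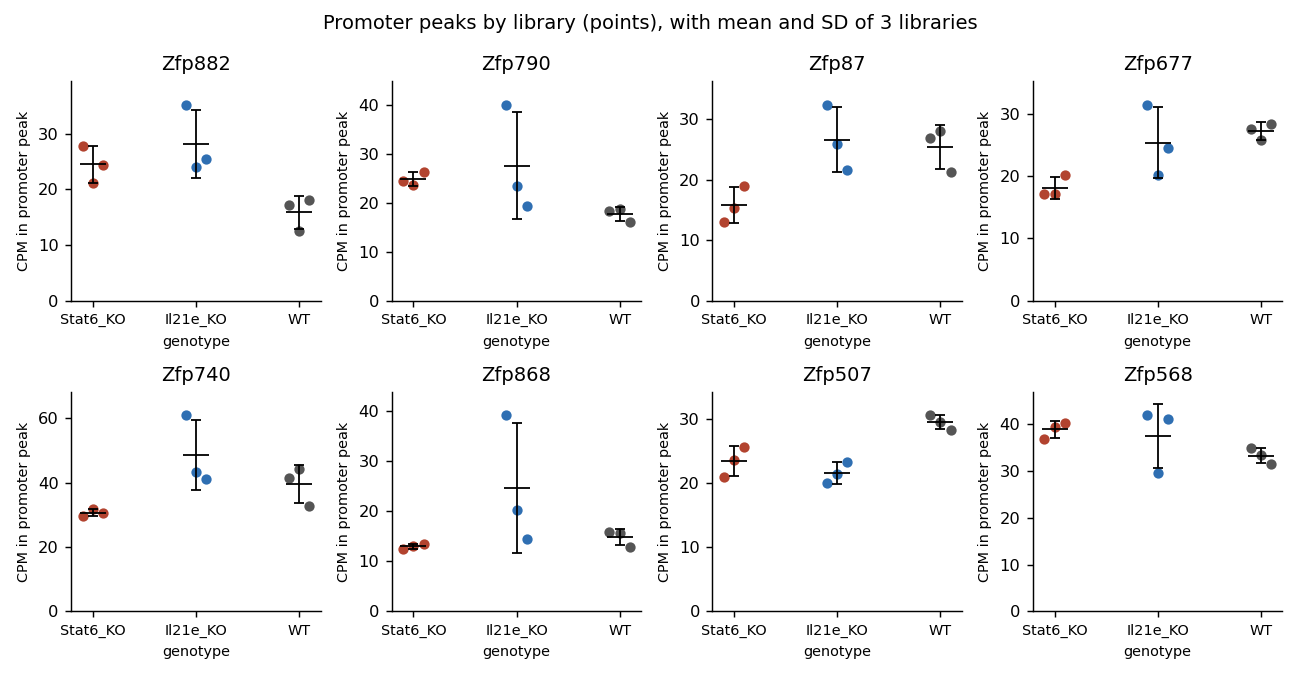
CPM in the promoter peak (vertical axis) of 8 numbered Zfp genes by genotype, with a point per library and the mean and SD of 3 libraries in black. Zfp882 and Zfp790 are higher in both knockouts than in WT, Zfp507 is lower in both, and Il21e_KO 1 is the high point at Zfp740 (61.0 CPM) and Zfp868 (39.1 CPM).

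Both knockouts share the WT libraries, so their values are given side by side. In both, without overlap with WT, 2 members were higher (Zfp790 and Zfp882) and 2 were lower (Zfp326 and Zfp507), of 287, and among other TSS peaks 48 were higher and 105 lower, of 11618. The same count was not made over all tested peaks, so the member counts are not read as particular to these genes. In single comparisons with WT, 6.31% of all tested peaks were higher and 6.89% lower without overlap in Stat6_KO. In Il21e_KO 2.84% were higher and 4.44% lower. None of these members passed the test in either comparison, so the values below are descriptions only. Zfp790, whose RefSeq window holds 2 matches to the STAT6 site, had 24.4, 23.6 and 26.3 CPM in Stat6_KO, 40.02, 23.3 and 19.4 CPM in Il21e_KO, and 18.4, 18.7 and 16.1 CPM in WT libraries. The Il21e_KO 3 value lay just above the highest WT value. Zfp507 had 21.0, 23.6 and 25.7 CPM in Stat6_KO, 20.01, 21.4 and 23.3 CPM in Il21e_KO, and 30.6, 29.6 and 28.4 CPM in WT libraries. Its WT values were close together and above all 6 knockout values, with log2 fold changes of -0.33 ± 0.17 in Stat6_KO and -0.44 ± 0.17 in Il21e_KO (SE, adjusted p 1.00 for both in limma-trend). Zfp326, whose human counterpart belongs to a complex linking RNA polymerase II elongation to splicing, had 34.1, 36.5 and 42.2 CPM in Stat6_KO, 40.02, 35.9 and 41.6 CPM in Il21e_KO, and 48.95, 47.5 and 42.6 CPM in WT libraries. Zfp326 is named because it meets this count and not by the naming rule.

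In Stat6_KO cells against Il21e_KO cells, the members again held no call. With limma-trend 0 of 287 had an adjusted p under 0.05 (lowest 0.780), beside 0.0104% of all tested peaks, and edgeR and DESeq2 also called 0. At an unadjusted p under 0.05, 1 member was higher (3.31% of all tested peaks were) and 17 were lower (2.38% of all, and 5.12% of other TSS peaks). Without overlap, 5 were higher (6.45% of all) and 24 were lower (4.59% of all, and 7.70% of other TSS peaks). The median log2 fold change was -0.14 for members, -0.12 for other TSS peaks and 0.04 for all tested peaks. It was -0.03 without Il21e_KO 1 and 0.00 with reads scaled to TSS reads. The count of 18 members at an unadjusted p under 0.05 became 11 without Il21e_KO 1 (4 higher, 7 lower), 10 without Stat6_KO 1, 11 without Stat6_KO 2, and 40 without Il21e_KO 2 as well as without Il21e_KO 3.

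Zfp740 had 29.5, 31.8 and 30.6 CPM in Stat6_KO libraries, 61.0, 43.5 and 41.1 CPM in Il21e_KO libraries, and 41.6, 44.4 and 32.9 CPM in WT libraries. The Stat6_KO values were close together and below all Il21e_KO and WT values, with a log2 fold change of -0.62 ± 0.18 against Il21e_KO (SE, adjusted p 0.780 in limma-trend). Zfp868 had 12.5, 12.95 and 13.5 CPM in Stat6_KO, 39.1, 20.2 and 14.4 CPM in Il21e_KO, and 15.9, 15.6 and 12.9 CPM in WT libraries. Its log2 fold change of -0.75 ± 0.27 (SE, adjusted p 0.780 in limma-trend) lay between -1.06 and -0.37 when single libraries were left out. The others of the 5 lowest were Zfp87 (-0.72), Zfp622 (-0.65) and Zfp653 (-0.61), for which Il21e_KO 1 held the highest value of all 9 libraries, at 32.4, 68.6 and 66.7 CPM. On the high side, Zfp839 had 63.1, 67.7 and 61.2 CPM in Stat6_KO, 52.4, 51.0 and 45.5 CPM in Il21e_KO, and 57.5, 56.1 and 47.7 CPM in WT libraries. All 3 Stat6_KO values lay above those of both other groups, with a log2 fold change of 0.36 ± 0.14 against Il21e_KO (SE, adjusted p 0.780 in limma-trend). Zfp109 (0.58), Zfp362 (0.50), Zfp428 (0.33) and Zfp945 (0.32) completed the 5 highest. When single libraries were left out, Zfp109 ran from 0.19 to 0.97, Zfp362 from 0.10 to 0.80, Zfp622 from -0.82 to -0.34 and Zfp653 from -0.81 to -0.32.

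Genes of the KRAB repression machinery and of the heterochromatin it works through were set beside the members. Of 28 such genes 26 had a TSS peak, 27 of their 28 TSS peaks were tested, and 0 were called in any of the 3 comparisons by limma-trend. At an unadjusted p under 0.05 there were 2, 1 and 5 of them for Stat6_KO against WT, Il21e_KO against WT and Stat6_KO against Il21e_KO, beside 3.29%, 3.52% and 5.68% of all tested peaks and 3.11%, 2.41% and 6.59% of other TSS peaks. Their median log2 fold changes of -0.09, 0.02 and -0.21 compare with -0.07, 0.05 and -0.14 for the members. Trim24, a TRIM28-related cofactor, had 33.5, 47.1 and 31.8 CPM in Stat6_KO, 70.5, 46.0 and 44.4 CPM in Il21e_KO, and 47.7, 65.4 and 49.7 CPM in WT libraries. Its Stat6_KO values lay below all WT values, by a log2 fold change of -0.53 ± 0.20 (SE, adjusted p 1.00 in limma-trend). Of the 3 tested TSS peaks of Dnmt3a, a DNA methyltransferase, the one with the lowest level had 25.6, 21.2 and 28.1 CPM in Stat6_KO, 16.2, 18.9 and 18.9 CPM in Il21e_KO, and 19.6, 15.6 and 19.3 CPM in WT libraries, with Stat6_KO above both other groups and a log2 fold change of 0.44 against WT. For the other 2 Dnmt3a peaks that log2 fold change was 0.07 and 0.02, and their groups overlapped. Mphosph8, a reader of histone H3 lysine 9 methylation, followed in Stat6_KO against WT (-0.41) and came first against Il21e_KO (-0.64). In Il21e_KO against WT the smallest p-values were those of Suv39h2 (log2 fold change 0.54), Morc3 (0.37) and Setdb1 (0.35). In the comparisons with WT all had an adjusted p of 1.00 in limma-trend. In Stat6_KO against Il21e_KO, Mphosph8 was followed by Trim24 (-0.50) and the same Dnmt3a peak (0.45), each with an adjusted p of 0.780 in limma-trend. Il21e_KO 1 held the highest value of all 9 libraries at Suv39h2, Morc3, Setdb1 and Mphosph8. Morc3 had 60.03, 30.9 and 28.9 CPM in Il21e_KO and 32.4, 29.6 and 25.2 CPM in WT libraries, so its groups overlapped. Suv39h2 had 68.6, 37.8 and 38.8 against 36.1, 31.1 and 28.4 CPM, without overlap, and Setdb1 did not overlap either. Mphosph8 had 37.2, 18.9 and 21.1 CPM in Il21e_KO, above its Stat6_KO values. These log2 fold changes were not recomputed without Il21e_KO 1.

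Away from their start sites, the member genes held few open regions. The 298 genes had 452 other listed peaks, or 1.52 per gene, against 3.90 per gene for the genes of other TSS peaks. At least 1 such peak was found in 48.0% of member genes, against 68.4% of the others, while the median transcript was 15.3 kb long against 20.1 kb. The median level of these peaks was 2.40 CPM in member genes and 2.53 CPM in other genes. Both medians lie within the floors of 1.66 to 2.86 CPM given above, and 34.3% of the peaks in each set passed the read filter. They therefore cannot show whether the levels were alike. Of the 452 peaks 155 were tested and 0 were called by limma-trend in any comparison. There were 3, 1 and 2 at an unadjusted p under 0.05 for Stat6_KO against WT, Il21e_KO against WT and Stat6_KO against Il21e_KO, beside 3.29%, 3.52% and 5.68% of all tested peaks.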

How the data were processed

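Per the labels, 50000 cells per reaction were tagmented with the Nextera enzyme and sequenced as 75 bp paired-end reads. The submitters' processing notes name Bowtie 1.3.0, MACS2 2.0, HOMER and the build mm9, without giving the role of each; whether replicates were pooled for peak calling, and whether read ends were shifted, is not given in the sources used here. The authors deposited 1 table of CPM per peak, in which each library adds up to the same total over the listed peaks. Its gene columns do not match their headers and were identified from what they hold. Deposited CPM values fell on whole multiples of 1 smallest step per library (100% within 0.01 read), treated here as 1 read.

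Peaks were kept by filterByExpr of edgeR 4.0.16 on those reads (minimum count 10, minimum total 15), leaving 48287 peaks tested and 67440 untested. All 9 libraries entered a limma-trend fit of log2(CPM + 1) in limma 3.58.1 under R 4.3.3, with Benjamini-Hochberg adjustment over all tested peaks at 0.05; fold changes on this scale understate low peaks. Each group's 3 libraries limit the precision. Alternatives were edgeR's quasi-likelihood test, DESeq2 1.42.0, limma-voom, other scalings, pseudocounts and filters, a replicate block and leaving out each library. The procedure was tested on simulated data, with changes put in only at well-covered peaks. Those changes were larger than the member log2 fold changes with all 9 libraries. That test therefore does not speak to shifts of the size described here, to low peaks or to an outlying library. Levels between genes are CPM per kb of peak. Peak positions are on mm9 as the table gives them, and RefSeq sequences are on GRCm38.p6. Promoter pairs were aligned end to end with edlib 1.3.9.post1, so an offset between annotated starts counts as edits.

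The members, gene lists and tests were chosen with earlier results of these data known. Named are the 5 members with the smallest p in each direction of a comparison, the 5 most and 5 least open, cluster extremes, a list of members with known roles, and, of the cofactor list, the 3 smallest p per comparison. Of the listed members, Zfp683, Zfp238, Zfp42, Zfp148 and Zfp423 had no tested TSS peak. Of 4 CD8 T cell, 8 myeloid, 5 NK cell and 6 erythroid marker genes, 2, 4, 3 and 1 had a TSS peak. These markers had 2, 3, 2 and 1 tested TSS peaks, and 0 of them were called. Their tested peaks had means from 7.02 (Eomes) to 37.7 CPM (Cd14), with Cd8b1 at 35.1 CPM. That lies within the range of the tested naive marker peaks, from 5.51 (Cd4) to 68.0 CPM (Tcf7). The ranges leave out genes without a TSS peak and untested peaks, such as those of Spi1 (0.967 CPM) and Ncr1 (1.86 CPM). They therefore do not show that markers of other cells were as open as naive markers, all 12 of which had a TSS peak.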

Additional observations from a re-analysis of the deposited data

How the results depend on the processing

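The number of members called was 0 in all 3 comparisons under every alternative run: edgeR, DESeq2, limma-voom, scaling to TSS reads, TMM-scaled CPM, pseudocounts of 0.25 and 5 CPM, no filter, only the 2 groups compared, 1 peak per gene, the replicate block and leaving out each library. The lowest adjusted p of a member was 0.0630 (Stat6_KO against WT without Il21e_KO 1, limma-trend) and 0.0819 with only those 2 groups in the fit. At an unadjusted p under 0.05, members numbered 9, 10 and 18 in Stat6_KO against WT, Il21e_KO against WT and Stat6_KO against Il21e_KO; DESeq2 gave 3, 7 and 9, only the 2 groups gave 27, 6 and 14, and leaving out single libraries gave 3 to 29, 5 to 23 and 10 to 40. Over the left-out libraries the median log2 fold change ran from -0.12 to -0.05, from -0.05 to 0.13 and from -0.22 to -0.03. The 5 members with the smallest p in each direction of a comparison kept their sign there under every alternative run for single peaks; the other named peaks were not recomputed. The number of all peaks called in Stat6_KO against WT was 61 without Il21e_KO 1 and 38 with only the 2 groups, against 5.

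The WT level of members over other TSS peaks was 1.02 as a ratio of medians per kb (ratios taken within each WT library averaged 1.01). It was 0.975 per peak, 1.05 with no filter, 1.01 with 1 peak per gene, 0.963 against Zbtb, Zscan and Zkscan promoters, and 1.01 without each WT library (1.006 to 1.012). Member genes in clusters numbered 134 with a gap of 250 kb and 168 with 1000 kb, against 156.

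Correlations of deviations from the group means ran from -0.186 to 0.249 for same-numbered libraries and from -0.302 to 0.242 for the others. Deviations within a group of 3 libraries depend on one another, so these correlations cannot show whether replicate numbers pair the samples. With the replicate block, members at an unadjusted p under 0.05 numbered 10, 10 and 22, and 0 were called. Not every library correlated best with its own number.

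Depth limits the lowest peaks: at 1 read per 0.555 to 0.953 CPM, a tested member at 4.48 CPM rests on few reads per library.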
